A study of Mus musculus with 31 samples.

Results

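The distal end of mouse chromosome 8 was examined as a group of neighbouring genes in the RNA of female dermal fibroblasts. Members were genes that the mm10 table places on chromosome 8 with a start at or beyond position 105000000, called the boundary from here on (1 row per symbol) and with at least 300 counts summed over all 6 RNA libraries. Of 24470 symbols in the table, 10622 had that many counts anywhere in the genome, 331 started in the segment, and 186 did both. The members ran from the core-binding factor gene Cbfb at 105170674 to a gene ending at 129271868, a span of 24.1 Mb, and 182 of the 186 are protein coding. The members were selected on position and on their summed counts, and the boundary was placed with earlier results of these libraries known, so values for the whole segment are descriptions and carry no test. A gene can meet the count minimum through 1 group alone, and a gene lost in both lines can miss it. The comparison set was the 405 genes of chromosome 8 that start before the boundary and have the same minimum of counts.

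The cells were hybrid fibroblasts, CAST/Ei x 129/Sv/Jae by their labels, in 3 groups with 2 RNA libraries each and no treatment. Wild-type cells (WT) keep Xist, a long noncoding RNA that spreads over 1 X chromosome in female cells and shuts it down. Line 1 (XaWT XiΔXist) lacks Xist on the inactive X and keeps it on the active X, and line 2 is a further cell line of that genotype, marked #2. Each deleted group is therefore 1 cell line, so a difference between a line and WT cannot be told apart from a difference between any pair of lines. The protocol describes the libraries of a group as biological replicates; nothing says whether they came from separate cultures, and p-values measure the spread between these libraries.

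Libraries were made from RNA freed of ribosomal RNA, and counts per transcript were summed by the authors over exons. Counts used per library ran from 3812310 to 7067515, and replicate 1 was the shallower library of every group. Xist had 633 and 429 CPM (counts per 1000000 of the scaled library) in WT and at most 1.08 CPM in any library of either line, as the genotype labels give. The 12 fibroblast markers, collagens and Vim among them, summed to between 4885 and 7823 CPM in the 6 libraries, and leukocyte, endothelial, melanocyte, adipocyte and muscle lists each summed to at most 20.02 CPM. In bulk RNA, fewer cells of a type and less RNA per cell cannot be told apart.

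The segment is no pathway. It holds housekeeping genes of splicing, translation, protein breakdown and vesicle traffic, and among them regulators of development such as Foxf1, Foxc2 and Maf and the cadherins Cdh3 and Cdh13. Cadherins are calcium-dependent adhesion proteins, and forkhead factors such as Foxf1 and Foxc2 act in mesenchyme and vessels. Many of its genes lie head to head with a neighbour, with the start regions of both genes in the same short stretch of DNA. The stretches below are shown because genes on both sides of them had lower RNA in both lines, and Tubb3 because it fell in both lines on its own. They are RefSeq sequence of GRCm38.p6 (the mm10 assembly), plus strand, 5′ to 3′, and end 1 base before the start of the gene on the right. Capitals mark a GC box (GGGCGG on either strand) or a CCAAT box (CCAAT or, on the other strand, ATTGG).
Sf3b3 to Cog4, chr8:110846804-110847023: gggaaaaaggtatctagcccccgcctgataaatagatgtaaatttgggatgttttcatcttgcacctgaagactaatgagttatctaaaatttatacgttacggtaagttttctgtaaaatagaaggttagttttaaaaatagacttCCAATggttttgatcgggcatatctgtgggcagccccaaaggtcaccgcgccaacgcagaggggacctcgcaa
Slc7a6os to Prmt7, chr8:106210934-106211053: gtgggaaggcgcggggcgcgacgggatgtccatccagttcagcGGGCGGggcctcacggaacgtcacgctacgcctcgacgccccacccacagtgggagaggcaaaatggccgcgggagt
Cog8 to Nip7, chr8:107056738-107056876: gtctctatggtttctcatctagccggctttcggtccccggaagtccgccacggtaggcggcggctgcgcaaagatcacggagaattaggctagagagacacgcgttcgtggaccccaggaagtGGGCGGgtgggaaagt
upstream of Tubb3, chr8:123411303-123411552: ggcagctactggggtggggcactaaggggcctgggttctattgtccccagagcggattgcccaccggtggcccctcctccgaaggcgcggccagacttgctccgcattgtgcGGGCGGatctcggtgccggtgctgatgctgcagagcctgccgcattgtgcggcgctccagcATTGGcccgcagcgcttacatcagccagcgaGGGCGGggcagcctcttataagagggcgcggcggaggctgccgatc

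These stretches differ from each other. The 220 bases between Sf3b3 and Cog4 hold 8 CpG, 41.8% G or C, 1 CCAAT box and no GC box, whereas the 120 bases between Slc7a6os and Prmt7 hold 15 CpG at 70.0% G or C and 1 GC box. Windows from 250 bases before to 50 after the start were given for 140 of the 186 members, and 71.4% of them held a GC box. The share was 35.7% of all 32851 RefSeq windows and 64.8% of the 10869 windows of genes with the same count minimum. Within the segment it was 64.3% of 70 windows in the first 10 Mb past the boundary and 78.6% of 70 windows beyond. A CCAAT box was in 32.9% of member windows, 37.4% of all windows and 38.3% of windows of genes with the count minimum. For both motifs, members had 1 window each, the nearest to the start used here. The comparison sets held every window of a gene, so these shares are not like for like. A match is a description of these letters and not evidence that a factor binds.

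RNA from the segment was lower in both lines than in WT. Members took 2.20% and 2.10% of all counts in the WT libraries, against 1.76% and 1.72% (line 1) and 1.61% and 1.66% (line 2). The lines did not overlap WT. Genes of chromosome 8 before the boundary took 4.21% and 4.05% (WT), 3.76% and 3.58% (line 1) and 3.98% and 3.93% (line 2). The median log2 fold change of the 186 members was -0.30 in line 1 and -0.42 in line 2, against -0.14 and -0.06 for the 405 genes before the boundary and 0.01 and 0.01 for all 12910 genes tested. Set against the WT mean, the median member stood at 0.04 and -0.04 (log2 CPM) in the WT libraries, against -0.30 and -0.32 (line 1) and -0.44 and -0.39 (line 2). The pooled SD between replicates of this median was 0.0346. Both lines are compared with the same pair of WT libraries, so their values are not independent of each other.

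**Figure D1:**
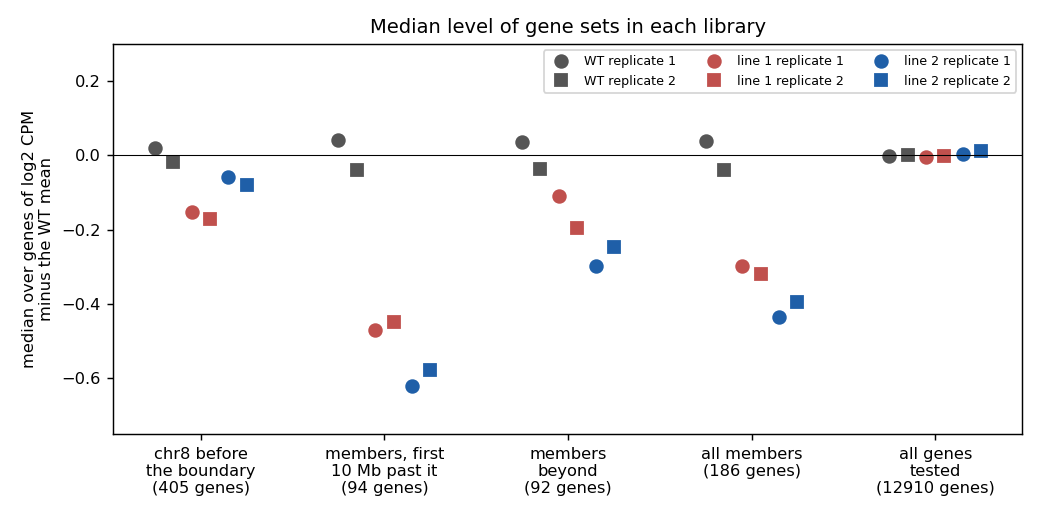
Median over the genes of a set of log2 CPM minus the WT mean of each gene, with 1 point per library (circles replicate 1, squares replicate 2; 6 libraries per set). The members in the first 10 Mb past the boundary sit between -0.62 and -0.45 in the 4 libraries of the lines, those farther out between -0.30 and -0.11, and all genes tested near 0.

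Single genes were tested in a fit over all genes (edgeR's quasi-likelihood test with Benjamini-Hochberg adjustment over 12910 genes, threshold 0.05). In line 1, 32 of the 186 members fell and 6 rose, and 7.55% of all genes tested fell and 6.75% rose. Of the 405 genes before the boundary, 37 fell and 19 rose. In line 2, 21 members fell and 2 rose, against 1.85% and 1.73% of all genes tested and 7 and 6 of the 405. With replicate number as a block, 83 members fell and 12 rose in line 1 (16.1% and 16.3% of all genes) and 82 fell and 7 rose in line 2 (6.25% and 5.87%). The calls in line 2 rest on both replicates of both groups, since leaving out any 1 of the 4 libraries left a single called member, Cdh3. Leaving out WT replicate 1 or 2 left 12 and 11 called members in line 1, where 38 were called with all libraries.

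The fitted log2 fold change was below 0 for 154 of 186 members in line 1 and 168 of 186 in line 2, and for 49.4% and 49.3% of all genes tested. Of the 405 genes before the boundary, 299 (73.8%) were below 0 in line 1 and 261 (64.4%) in line 2. On chromosome 7, 630 (83.9%) of the 751 genes with the count minimum were below 0 in line 1 and 688 (91.6%) in line 2. A high share below 0 is therefore not particular to the segment. Both libraries of the line lay below both WT libraries for 108 members in line 1 (25.6% of all genes tested) and for 146 in line 2 (23.9%). For 102 members this held in both lines, as it did for 12.3% of all genes tested and for 74 of the 405 genes before the boundary. Before the boundary it held for 154 of 405 genes in line 1 and 127 in line 2.

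The lower values were not spread evenly over the segment. In the first 10 Mb past the boundary, a stretch chosen after its values were seen and so given with no test, the 94 members had a median of -0.48 in line 1 (quartiles -0.68 and -0.29) and -0.60 in line 2 (quartiles -0.76 and -0.42). These medians are 28.4% and 33.8% below WT. From there to the end of the chromosome, the 92 members had medians of -0.14 and -0.26. In the first of these stretches 86 members were below 0 in line 1 and 89 in line 2, and in the other 68 and 79. Of the 32 members that fell in line 1, 27 lay in the first stretch, as did 19 of the 21 that fell in line 2. With the replicate block, 61 of the 94 and 22 of the 92 fell in line 1 (16.1% of all genes tested). In line 2 these were 65 and 17 (6.25%).

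The boundary does not mark where the lower values begin. The 9 genes of the comparison set from 100 Mb to the boundary had medians of -0.39 and -0.48, close to the members, and the 396 genes before 100 Mb had -0.14 and -0.06. Just outside the boundary, Fam96b at 104.64 Mb had -0.39 and -0.51, and Rrad, which encodes a small GTPase, had -3.05 and -0.80. Just inside, Cbfb at 105170674-105217988 had -0.29 and -0.46 and the glycosyltransferase gene B3gnt9 had 0.69 and 0.10. Farther out, Tk2, Cmtm4 and Nae1, which start at 104.23, 104.35 and 104.51 Mb, had -0.34, -0.52 and -0.53 in line 1 and -0.42, -0.48 and -0.57 in line 2, whereas Cdh11 at 102.63 Mb had -0.58 and -0.07. Among these genes, Cmtm3 at 104.34 Mb was above 0 in line 1 (0.23) and had -0.31 in line 2, Dync1li2 had -0.19 and -0.21, and Pdp2 had -0.19 and -0.71.

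**Figure D2:**
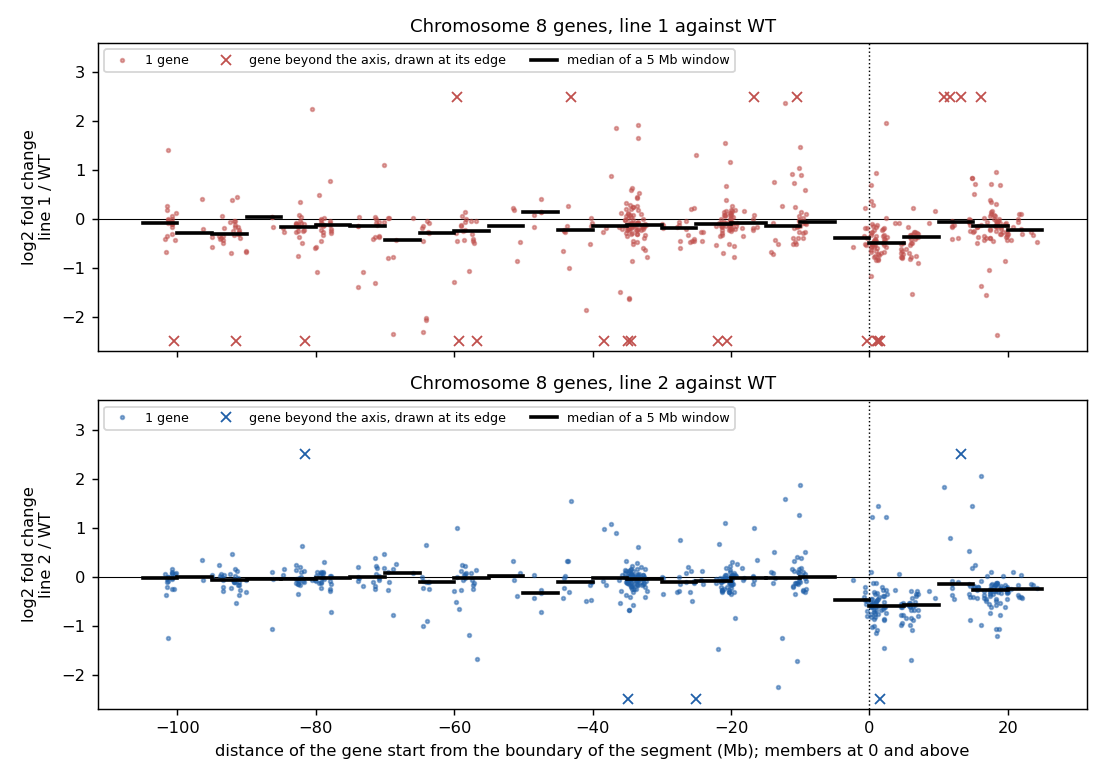
Log2 fold change of each tested chromosome 8 gene with at least 300 counts against the distance of its start from the boundary (Mb), in line 1 (above) and line 2 (below); bars are medians of 5 Mb windows with at least 3 genes, and crosses are genes beyond 2.5 drawn at the edge. The window medians drop to -0.50 in line 1 and -0.60 in line 2 from 0 to 5 Mb past the boundary. They are -0.06 and -0.16 at 10 to 15 Mb past it (18 genes). The windows after that are lower again, with -0.15 and -0.28 (62 genes), then -0.23 and -0.25 (12 genes).

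Set beside windows of 5 Mb on all autosomes with at least 20 genes with the count minimum, of which there were 193, the window of 0 to 5 Mb past the boundary (68 members) had the lowest median in line 2 and the 2nd lowest in line 1. The window of 5 to 10 Mb past it (26 members) had -0.38 and -0.59 and ranked 6th lowest in line 1 and 2nd lowest in line 2. The next lowest window in line 2 lay on chromosome 7, with -0.33. In line 1 the lowest window lay on chromosome 19, with -0.50. Other chromosomes also stood away from 0, with medians from -0.26 (chromosome 7) to 0.47 (chromosome 14) in line 1 and from -0.30 (chromosome 7) to 0.22 (chromosome 16) in line 2.

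**Figure D3:**
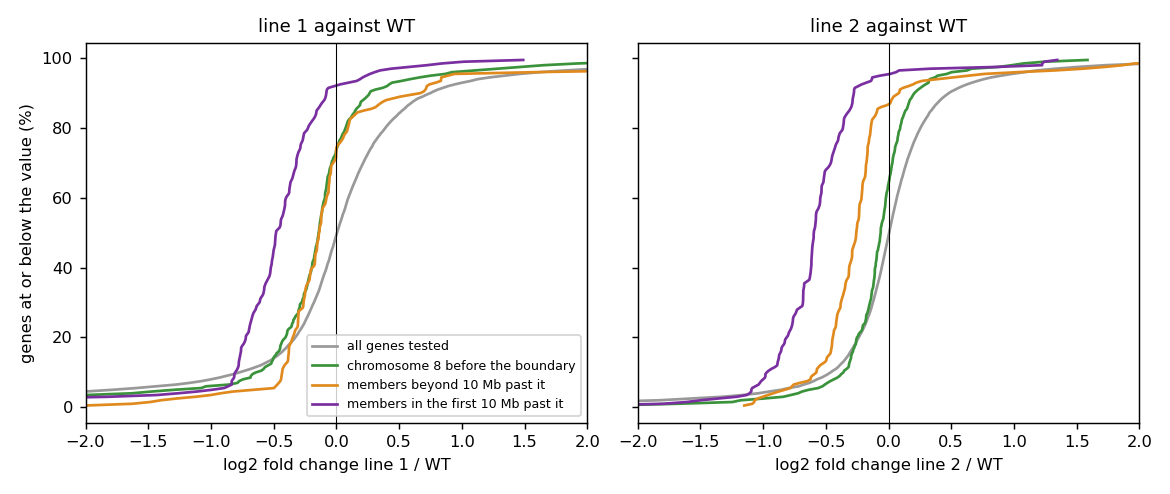
Cumulative share of genes (percent) at or below each log2 fold change for all 12910 genes tested, the 405 chromosome 8 genes before the boundary, the 94 members in the first 10 Mb past it and the 92 members beyond. The curve of those 94 members lies left of the others from its lower quartile to its upper quartile, with medians of -0.48 (line 1) and -0.60 (line 2).

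Members for splicing and export of RNA, all 7 of the list measured, had a median of -0.51 in line 1 and -0.68 in line 2. All but Rbm34 lie in the first 10 Mb past the boundary, where the 94 members had medians of -0.48 and -0.60. In line 1, 3 fell and none rose, and in line 2, 4 fell and none rose. Over all members 17.2% fell in line 1 and 11.3% in line 2, and over all genes tested 7.55% and 1.85%. The list holds Thap11, which is 1 of the calls in each line and is better known as a zinc-finger regulator of cell growth. Sf3b3, a subunit of the splicing complex that recognises the branch point, stood at 408 and 387 CPM in the WT libraries, at 263 and 287 in those of line 1 and at 252 and 265 in those of line 2. All 4 libraries of the lines lay below both WT libraries. Sf3b3 fell by 0.53 on the log2 scale for line 1 (SE 0.12, edgeR adjusted p = 0.0302) and by 0.62 for line 2 (SE 0.12, edgeR adjusted p = 0.0459). Cog4, across the shared start region printed above and a subunit of the Golgi tethering complex, had WT values of 152 and 140 CPM, line 1 values of 118 and 107, and line 2 values of 101 and 91.8. Its log2 fold change was -0.38 and -0.60 and missed the threshold in both lines (adjusted p = 0.0939 and 0.0557 by edgeR, and 0.0115 and 0.00527 with replicate number as a block). Its libraries did not overlap those of WT.

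Thap11 gave 113 and 100 CPM (WT), 65.1 and 60.9 (line 1) and 57.2 and 62.9 (line 2). It fell by 0.76 on the log2 scale in line 1 (adjusted p = 0.0142 by edgeR) and by 0.83 in line 2 (adjusted p = 0.0312). Dhx38, an RNA helicase of the spliceosome, had 282 and 255 CPM across the WT pair, 200 and 178 across that of line 1 and 179 and 169 across that of line 2. It fell in line 1 (log2 fold change -0.51, adjusted p = 0.0406 by edgeR) and had -0.63 in line 2 with an adjusted p of 0.0510 (0.00389 with the block). The helicase gene Ddx19b, of an export factor, went a different way, with 25.5 and 34.4 CPM in the WT libraries, 20.002 and 27.7 in those of line 1 and 7.27 and 10.9 in those of line 2. Only its line 2 libraries lay apart from WT. Ddx19b fell by 1.70 in line 2 (adjusted p = 0.0401 by edgeR) and differed between the lines (line 2 minus line 1 -1.38, adjusted p = 0.0332). Reads of Ddx19b and its close copy Ddx19a may be split between them by the counting, which makes both uncertain.

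Exosc6, a subunit of the RNA exosome, and Fuk, a kinase that salvages fucose, fell in both lines by nearly the same amount. Exosc6 had WT values of 76.3 and 69.6 CPM, line 1 values of 42.2 and 42.7, and line 2 values of 37.1 and 43.4. Fuk gave 78.1 and 68.2 CPM (WT), 40.8 and 42.2 (line 1) and 34.4 and 39.3 (line 2). The lines lay below WT without overlap in both genes. Log2 fold changes were -0.78 and -0.85 for Exosc6 (adjusted p = 0.0190 and 0.0380 by edgeR) and -0.81 and -0.98 for Fuk (adjusted p = 0.0176 and 0.0275). Line 2 minus line 1 was -0.07 for Exosc6 (SE 0.15) and -0.17 for Fuk (SE 0.15). In all, 13 members fell in both lines (1.12% of all genes tested, and 4 of the 405 genes before the boundary), which were Fhod1, Gfod2, Thap11, Edc4, Cdh3, Nob1, Zfp821, Phlpp2, Sf3b3, Fuk, Exosc6, Foxc2 and Tubb3.
Of the members, only Foxf1 rose in both (0.736% of all genes tested, and 5 of the 405), and no member fell in either line and rose in the other (0.395% of all genes tested, and 2 of the 405). Foxf1 passed the count minimum through the lines, so its rise is tied to its selection. Because both lines were set against the same WT libraries, these shared calls are not independent.

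**Figure D4:**
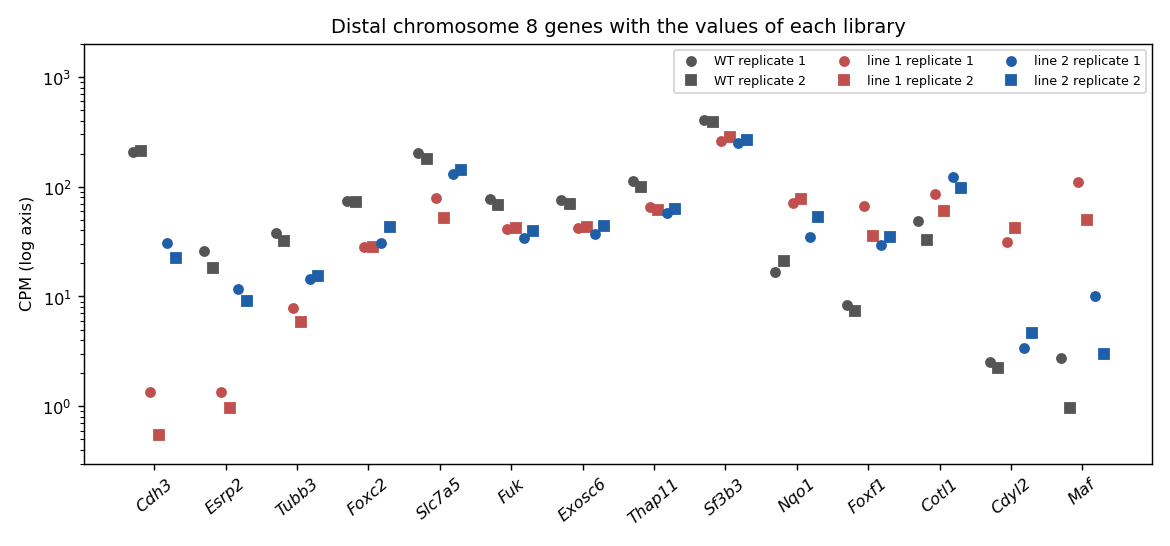
CPM of 14 members in each library on a log axis, with circles for replicate 1 and squares for replicate 2. Fuk, Exosc6, Thap11 and Sf3b3 show a small drop of like size in both lines, Cdh3, Esrp2 and Tubb3 a deeper one, and Nqo1, Foxf1, Cotl1, Cdyl2 and Maf lie higher in line 1 than in WT.

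Cdh3, the gene of P-cadherin, an adhesion protein best known from epithelia, had the deepest fall of the members in both lines. It lies at 106510852-106556911 and had 208 and 214 CPM across the WT pair, 1.35 and 0.546 across that of line 1 and 31.0 and 22.4 across that of line 2. Line 1 was almost without it and line 2 lay in between, with no overlap of any pair of groups. Cdh3 fell by 7.96 on the log2 scale for line 1 (SE 0.33, edgeR adjusted p = 0.000274) and fell by 2.996 for line 2 (SE 0.22, edgeR adjusted p = 0.00425), and line 2 stood 4.96 above line 1 (SE 0.36, adjusted p = 0.000818). Esrp2, a splicing regulator of epithelial cells and among the members nearest to the count minimum, stood at 25.8 and 18.2 CPM in the WT libraries, at 1.35 and 0.955 in those of line 1 and at 11.6 and 9.02 in those of line 2. It fell by 4.28 in line 1 (adjusted p = 0.00139 by edgeR) and had -1.09 in line 2 (adjusted p = 0.114, with the block 0.00773).

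Epithelial markers off chromosome 8 were, as a sum, also lower in both lines than in WT. The 8 markers (Krt5, Krt14, Krt10, Krt1, Krt8, Krt18, Epcam and Dsp) summed to 42.2 and 46.4 CPM for WT, 10.0 and 9.55 for line 1 and 13.6 and 9.45 for line 2. Of the 2 with enough counts to be tested, 1 fell in each line, and Krt1 was at 0 in all 6 libraries. The marker sums of the lines overlapped each other, whereas Cdh3 and Esrp2 were higher in line 2 than in line 1. The part of these markers in the fall of Cdh3 and Esrp2 was not tested.

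Cdh13, the gene of T-cadherin, which is anchored to the membrane by a lipid and lacks a cytoplasmic tail, went the other way. It had no count in either WT library, 39.2 and 70.4 CPM in line 1, and 6.54 and 22.0 in line 2. All of its 843 counts came from the lines, so it passed the count minimum only through the groups where it is high. Against a floor of 3 counts over the WT group, it was at least 204-fold higher in line 1 and at least 55.5-fold higher in line 2. The test passed in line 1 (adjusted p = 0.00775 by edgeR) and missed in line 2 (adjusted p = 0.0507, with the block 0.00285). Line 2 minus line 1 was -1.90 (SE 0.59, adjusted p = 0.115 by edgeR, 0.00225 with the block). The 5 endothelial markers (Pecam1, Cdh5, Kdr, Tek and Vwf) summed to 7.33 and 8.32 CPM for WT, 2.97 and 3.55 for line 1 and 6.54 and 5.08 for line 2. Only 2 of the 5 had enough counts to be tested, and 1 fell in each line. Their relation to the level of Cdh13 was not tested. Over the 6 measured members of the cadherin and adhesion list the median was -0.32 in line 1 and -0.28 in line 2, with Cdh13 at its bound or at its fitted value. Bcar1, an adaptor at focal adhesions, had 350 and 357 CPM across the WT pair, 220 and 198 across that of line 1 and 262 and 277 across that of line 2, and fell in line 1 only by the test (log2 fold change -0.76 and -0.39, adjusted p = 0.00916 and 0.168 by edgeR, the latter 0.0298 with the block). The line 2 minus line 1 difference of 0.37 had an adjusted p of 0.100 by edgeR (0.0189 with the block). Itgb1, the beta subunit of many matrix receptors, stood at 533 and 527 CPM in the WT libraries, at 437 and 406 in those of line 1 and at 483 and 461 in those of line 2, and missed the threshold in both lines (-0.33 and -0.17, adjusted p = 0.134 and 0.658 by edgeR, the former 0.0141 with the block).

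Of the transcription factors and chromatin regulators, 20 of the 22 listed were members, with medians of -0.23 in line 1 and -0.35 in line 2. In line 1, 4 fell and 3 rose (7.55% and 6.75% of all genes tested). In line 2, 3 fell and 1 rose (1.85% and 1.73%). The forkhead genes Foxf1 and Foxc2, which lie on the same strand with Mthfsd between them on the other strand, moved in opposite directions, and Mthfsd had -0.12 in line 1 and -0.09 in line 2. Foxf1, a factor of lung and gut mesenchyme at 121084386-121088154, had WT values of 8.34 and 7.36 CPM, line 1 values of 66.8 and 35.6, and line 2 values of 29.3 and 34.97. Every library of the lines lay above both WT libraries. Most of its counts came from the lines, through which it passed the count minimum, so its rise is tied to its selection. Foxf1 rose by 2.70 in line 1 (adjusted p = 0.00519 by edgeR) and 2.04 in line 2 (adjusted p = 0.0370). Foxc2, a factor of lymphatic vessels and mesenchyme at 121116171-121118894, had 74.5 and 72.0 CPM in WT, 28.4 in both libraries of line 1, and 30.8 and 43.0 in line 2. It fell by 1.37 in line 1 (adjusted p = 0.00690 by edgeR) and by 0.98 in line 2 (adjusted p = 0.0495).

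Maf, a leucine-zipper factor of lens, cartilage and immune cells, and Cdyl2, a chromodomain protein, were higher in line 1. They had 852 and 495 counts in all and passed the count minimum through line 1, so their rise is tied to their selection. Maf gave 2.78 and 0.960 CPM (WT), 110 and 50.0 (line 1) and 10.2 and 2.96 (line 2). Its line 1 libraries stood above all others, and in each group the library numbered 1 had more Maf than the library numbered 2. Maf rose by 5.51 in line 1 (SE 0.79, adjusted p = 0.00750 by edgeR), had 1.83 in line 2 (adjusted p = 0.449, with the block 0.0187), and stood 3.69 lower in line 2 than in line 1 (line 2 minus line 1 -3.69, adjusted p = 0.0181). Cdyl2 had 2.53 and 2.24 CPM across the WT pair, 31.4 and 42.0 across that of line 1 and 3.39 and 4.65 across that of line 2. It rose by 3.95 in line 1 (adjusted p = 0.000969 by edgeR), had 0.79 in line 2 (adjusted p = 0.363), and differed between the lines (-3.16, adjusted p = 0.00158).

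In the cytoskeleton list, 8 of 12 genes were members, with medians of -0.53 and -0.72. Of these, 3 fell in line 1 and 2 in line 2 (7.55% and 1.85% of all genes tested), and 1 rose in line 2 (1.73%). Tubb3, a beta tubulin best known from neurons, stood at 37.9 and 32.2 CPM in the WT libraries, at 7.84 and 5.87 in those of line 1 and at 14.5 and 15.5 in those of line 2. No pair of groups overlapped. It fell by 2.37 in line 1 (adjusted p = 0.00208 by edgeR) and by 1.21 in line 2 (adjusted p = 0.0403), and line 2 stood 1.16 above line 1 (adjusted p = 0.0264). Fhod1, a formin that bundles actin in stress fibres, had WT values of 173 and 162 CPM, line 1 values of 113 and 122, and line 2 values of 105.4 and 113 and fell in both (-0.50 and -0.62, adjusted p = 0.0310 and 0.0422 by edgeR). Cotl1, an actin-binding protein, gave 49.0 and 32.8 CPM (WT), 86.0 and 59.9 (line 1) and 124 and 98.4 (line 2). It rose by 1.45 in line 2 (adjusted p = 0.0453 by edgeR) and had 0.84 in line 1 (adjusted p = 0.0955, with the block 0.00171). Spire2, an actin nucleator, had 27.3 and 34.1 CPM across the WT pair, 54.6 and 64.3 across that of line 1 and 11.1 and 17.8 across that of line 2, above WT in the former and below it in the latter. Neither passed the test against WT (0.95 and -1.07, adjusted p = 0.0556 and 0.105 by edgeR, and 0.00283 and 0.00779 with the block), and the lines differed from each other by -2.02 (adjusted p = 0.00572).

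Genome maintenance and cell cycle genes, all 10 of the list, had medians of -0.18 and -0.45, and 1 fell in each line. Over all members 17.2% and 11.3% fell, and over all genes tested 7.55% and 1.85%. Terf2 and Terf2ip encode partners in the complex that caps telomeres. Terf2 stood at 76.8 and 72.5 CPM in the WT libraries, at 51.9 and 55.0 in those of line 1 and at 39.5 and 41.7 in those of line 2 and fell in line 2 (-0.88, adjusted p = 0.0257 by edgeR), with -0.48 in line 1 (adjusted p = 0.0587, with the block 0.0129). Terf2ip had WT values of 65.9 and 60.8 CPM, line 1 values of 36.8 and 31.3, and line 2 values of 34.6 and 37.8. It fell in line 1 (-0.90, adjusted p = 0.0143 by edgeR) and had -0.80 in line 2 (adjusted p = 0.0510, with the block 0.00991). Kars, the lysyl-tRNA synthetase gene that starts 5 bases from Terf2ip on the other strand, gave 239 and 226 CPM (WT), 198 and 179 (line 1) and 182 and 178 (line 2). Its changes were -0.30 and -0.37 (adjusted p = 0.133 and 0.176 by edgeR), with 0.0224 and 0.0252 under the replicate block. Both genes were below WT in every library of the lines.

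Pairs of members with opposing starts at most 1000 bases apart numbered 19. Emc8 and a second symbol of its locus were both paired with Cox4i1, so these are 18 separate start regions. Both sides of the region had a log2 fold change below 0 in 15 of the 18 in line 1 and 17 in line 2. Taken singly, 82.8% and 90.3% of all members were below 0, and 49.4% and 49.3% of all genes tested. These shares count single genes and the regions count both genes at once, so they are not like measures. Whether these pairs differ from neighbours that are not head to head was not tested. Slc7a6os and Prmt7, a methyltransferase gene, had -0.72 and -0.81 in line 1 and -0.61 and -0.77 in line 2. Cog8, a subunit of the same Golgi complex as Cog4, and Nip7, a factor of ribosome assembly, had -0.41 and -0.52 in line 1 and -0.88 and -0.52 in line 2. Galns and Trappc2l, more than 10 Mb past the boundary, had 0.72 and 0.34 in line 1 and 0.09 and -0.25 in line 2. Galns, a lysosomal sulfatase, was the member of this pair that rose in line 1, with 42.9 and 43.4 CPM across the WT pair, 79.2 and 63.7 across that of line 1 and 45.5 and 46.1 across that of line 2 (adjusted p = 0.0288 and 0.912 by edgeR).

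**Figure D5:**
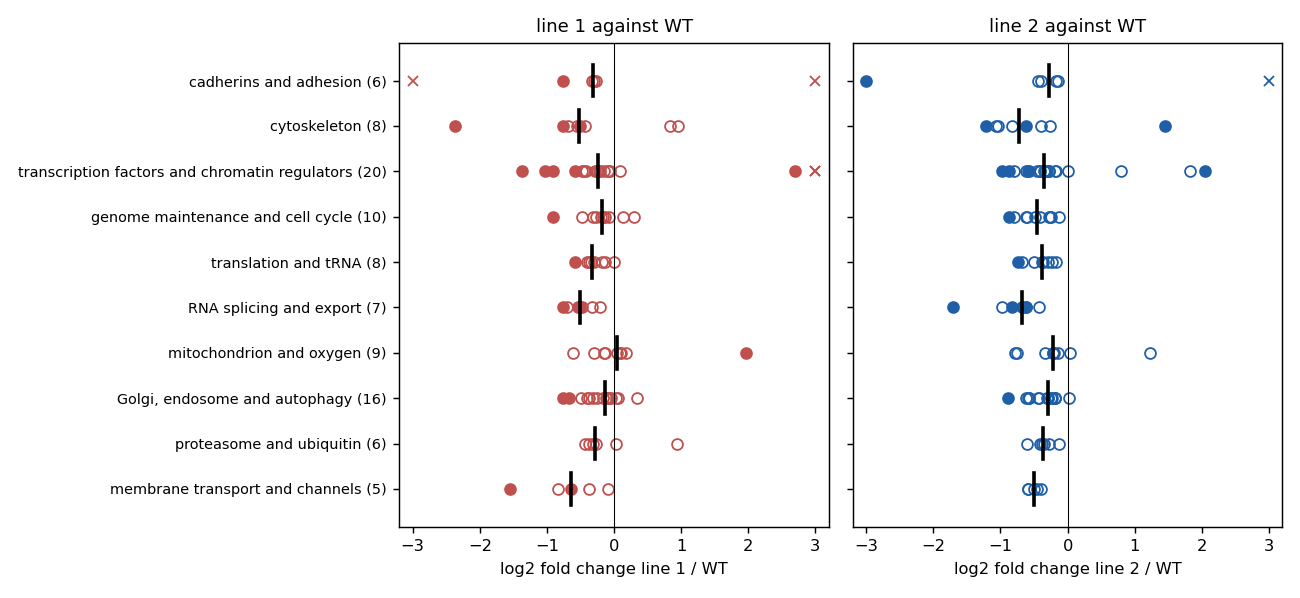
Log2 fold change of each member of 10 gene lists (numbers of members in brackets) in line 1 (left) and line 2 (right), with filled circles for members past the threshold, open circles for the others, crosses for values beyond 3 drawn at the edge, and bars for list medians. Most bars lie below 0 in both panels. The mitochondrion and oxygen list has a median of 0.05 in line 1, which is the value of its member Mvd, and -0.21 in line 2. Lists differ in where their members lie. Medians were -0.48 and -0.60 over the 94 members in the first 10 Mb past the boundary, and -0.14 and -0.26 over the 92 beyond.

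The Golgi, endosome and autophagy list (16 of 16 genes) had medians of -0.14 and -0.30, with 2 members that fell in line 1 and 1 in line 2. The shares that fell were 17.2% and 11.3% of all members and 7.55% and 1.85% of all genes tested. Ist1 and Vps4a, which act together in the membrane-cutting ESCRT machinery, were those of line 1. Ist1 stood at 138 and 123 CPM in the WT libraries, at 77.0 and 76.4 in those of line 1 and at 88.7 and 86.2 in those of line 2, with -0.77 and -0.58 (adjusted p = 0.00887 and 0.0534 by edgeR, the latter 0.00829 with the block). Vps4a had WT values of 121 and 129 CPM, line 1 values of 75.1 and 81.9, and line 2 values of 75.3 and 88.1, with -0.67 and -0.61 (adjusted p = 0.0214 and 0.0658 by edgeR, the latter 0.00650 with the block). Cog8 fell in line 2, from 95.5 and 86.6 CPM in WT to 48.0 and 50.5, with 74.1 and 63.3 in line 1 (adjusted p = 0.111 in line 1, with the block 0.0244, and 0.0304 in line 2 by edgeR). Ist1 overlaps Pkd1l3 on the other strand, and the sources used here do not say whether counting was stranded.

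For translation, all 8 listed genes were members, with medians of -0.33 and -0.37, and each was below 0 in both lines. Of these 8, 1 fell in each line, beside 7.55% and 1.85% of all genes tested. Nob1, an endonuclease that matures the small ribosomal subunit, gave 112 and 107 CPM (WT), 68.7 and 77.7 (line 1) and 60.1 and 70.4 (line 2) and was the 1 that fell in each line (-0.58 and -0.74, adjusted p = 0.0402 and 0.0456 by edgeR). The proteasome and ubiquitin list (6 members) had medians of -0.29 and -0.37 and no call, where 14.3% and 3.58% of all genes tested were called. Of its members, 4 were below 0 in line 1 and all 6 in line 2; those above 0 in line 1 were Wwp2, with 0.03, and Psmb10, an inducible proteasome subunit. Psmb10 had 45.5 and 38.7 CPM across the WT pair, 116 and 47.6 across that of line 1 and 39.5 and 37.4 across that of line 2. Replicate 1 of line 1 stood apart from the other libraries in Psmb10.

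Membrane transport genes (5 of 12 listed) had medians of -0.64 and -0.50. Of them, 2 fell in line 1 and none in line 2 (7.55% and 1.85% of all genes tested). Slc7a5, an exchanger of large neutral amino acids, stood at 203 and 180 CPM in the WT libraries, at 79.7 and 52.1 in those of line 1 and at 130 and 141 in those of line 2. It fell by 1.55 in line 1 (adjusted p = 0.00610 by edgeR), had -0.50 in line 2 (adjusted p = 0.339), and differed between the lines by 1.06 (adjusted p = 0.0240). Slc12a4, a potassium-chloride cotransporter, had WT values of 303 and 265 CPM, line 1 values of 196 and 168, and line 2 values of 193 and 182, with -0.64 and -0.60 (adjusted p = 0.0255 and 0.0739 by edgeR, the latter 0.00509 with the block).

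In the mitochondrion and oxygen list (9 of 10), 4 members were below 0 in line 1 and 7 in line 2 (49.4% and 49.3% of all genes tested). All but Dhodh and Nqo1 lie beyond the first 10 Mb past the boundary, where the 92 members had medians of -0.14 and -0.26. The list also holds Mvd, better known as a gene of sterol synthesis, with 0.05 in line 1 and -0.75 in line 2. The list median in line 1 is the value of Mvd. Of all genes tested, 6.75% rose in line 1. Nqo1, a quinone reductase induced by oxidative stress, was the 1 call, and it lies inside the stretch where most members were lower. It gave 16.7 and 21.0 CPM (WT), 71.1 and 76.7 (line 1) and 34.9 and 53.2 (line 2). All libraries of the lines lay above WT. Nqo1 rose by 1.96 in line 1 (adjusted p = 0.00457 by edgeR) and had 1.23 in line 2 (adjusted p = 0.0545, with the block 0.00524). Mlkl, the executor of necroptosis and the only member of the list of death and innate immunity genes, had 84.9 and 90.9 CPM across the WT pair, 119 and 85.6 across that of line 1 and 44.6 and 50.2 across that of line 2. Neither change passed the test (0.21 and -0.89, adjusted p = 0.535 and 0.0647 by edgeR, the latter 0.02002 with the block), and line 2 minus line 1 was -1.10 (adjusted p = 0.0142).

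Within the first 10 Mb past the boundary the members above 0, named here after their values were seen, were B3gnt9, Nol3, Zdhhc1, Psmb10, Nqo1, Wwp2, Mlkl and Wwox in line 1 and B3gnt9, Plekhg4, Smpd3, Nqo1 and Gm1943 in line 2. B3gnt9 and Nqo1 were above 0 in both. Smpd3, a sphingomyelinase, stood at 9.85 and 24.5 CPM in the WT libraries, at 2.70 and 2.05 in those of line 1 and at 46.5 and 49.2 in those of line 2, below WT in the former and above it in the latter. It fell in line 1 (-2.92, adjusted p = 0.0136 by edgeR), had 1.45 in line 2 (adjusted p = 0.131, with the block 0.0203), and line 2 minus line 1 was 4.37 (adjusted p = 0.00336). Plekhg4 had WT values of 9.10 and 13.3 CPM, line 1 values of 7.03 and 8.60, and line 2 values of 24.5 and 28.3, with -0.52 and 1.22 (adjusted p = 0.290 and 0.0616 by edgeR, the latter 0.00541 with the block).

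The lines were also set against each other. The 186 members had a median of -0.11 for line 2 minus line 1, the 405 genes before the boundary had 0.09, and all genes tested had -0.01. By the test, 9 members were lower and 6 higher in line 2 than in line 1 (5.76% and 6.87% of all genes tested), together 8.06% of members beside 12.6% of all genes tested. With the replicate block these became 35 and 8 (13.8% and 13.4% of all genes tested). Without line 2 replicate 1 or 2, 7 and 5 members were called, and 15 with all libraries. Pdf, a peptide deformylase, gave 24.8 and 24.0 CPM (WT), 17.8 and 20.6 (line 1) and 8.24 and 9.31 (line 2) and fell in line 2 (-1.46, adjusted p = 0.0209 by edgeR) with -0.34 in line 1 (adjusted p = 0.330). Gfod2 fell in both, from 37.6 and 44.5 CPM (WT) to 24.3 and 23.9 (line 1) and to 19.6 and 21.0 (line 2) (-0.77 and -1.01, adjusted p = 0.0325 and 0.0374 by edgeR). Zfp821, a zinc-finger gene, did so too, from 85.4 and 71.4 CPM to 50.3 and 40.5 (line 1) and to 41.9 and 39.3 (line 2) (-0.79 and -0.95, adjusted p = 0.0296 and 0.0430 by edgeR). Pdpr, a regulator of pyruvate dehydrogenase, had 35.1 and 38.1 CPM across the WT pair, 8.11 and 16.5 across that of line 1 and 15.5 and 18.6 across that of line 2 and fell in line 1 (-1.53, adjusted p = 0.0289 by edgeR) with -1.09 in line 2 (adjusted p = 0.166, with the block 0.0196).

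Levels between members were compared per length. Mean CPM per kb of exon over the 6 libraries ran from 1.60 to 132 with a median of 24.5. The highest were Aars, the alanyl-tRNA synthetase gene, with 132 CPM per kb, Cox4i1, a subunit of cytochrome oxidase, with 117, Itgb1 with 113, the purine salvage gene Aprt with 102, the proteasome subunit gene Psmd7 with 91.5, and Tcf25 with 90.8. None of these 6 passed the test in either line; with the replicate block Aars (adjusted p = 0.0197 by edgeR) and Itgb1 passed in line 1, and Psmd7 in both (0.0109 and 0.0273). Their log2 fold changes ran from -0.40 (Aars) to 0.11 (Aprt) in line 1 and from -0.36 (Psmd7) to -0.17 (Itgb1) in line 2. Just inside the count minimum were Pkd1l3 with 333 counts over all libraries and Esrp2 with 339.5, and just outside were Cyba, a subunit of NADPH oxidase, with 293 and Crispld2 with 271. Cyba had 30.3 and 27.7 CPM in WT and at most 0.242 in any library of the lines. Its log2 fold changes of -10.29 in line 1 and -8.00 in line 2 (adjusted p = 0.00166 and 0.00825 by edgeR) were below those of Cdh3. With almost no counts in the lines, Cyba stayed under the count minimum. Crispld2 had 5.05 and 6.24 CPM for WT, 5.68 and 6.01 for line 1 and 13.6 and 13.0 for line 2.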

How the data were processed

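RNA was measured in 6 of the series' 31 samples. The other 25, of chromatin assays, were not used here. Per the labels' protocols, ribosomal RNA was depleted and a directional kit gave 50 bp pairs. The deposited table holds expected counts per RefSeq transcript, summed over exons without normalization per the file headers, in steps of 0.5. Trim Galore 0.4.1, TopHat2, SAMtools, bedtools 2.25.0, HOMER and the mm10 build are named in the submitters' processing notes. The sources used here do not say whether counting was stranded; 41 members overlap another gene, and reads there cannot be assigned with certainty.

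The design assumed counts; the deposited expected counts were rounded to whole numbers, with 0.5 rounded up. Of 28972 transcript rows, the row with the highest total was kept for each of 24470 symbols. After filterByExpr, 12910 genes were tested in edgeR 4.0.16 (R 4.3.3; TMM scaling, 1 mean per group, 3 residual degrees of freedom, biological coefficient of variation 0.170), with Benjamini-Hochberg adjustment over all genes. Counts used were 4061288 and 6211344 (WT), 3812310 and 7067515 (line 1), and 4194405 and 6965100 (line 2). The fit was tested on simulated counts.

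Deviations of same-numbered libraries from their group means correlated between groups (Pearson 0.54, 0.59 and 0.53 over 12910 genes), so replicate number pairs the libraries; it also goes with depth. Alternatives were RLE scaling, no filter, DESeq2 1.42.0, the replicate block, only the groups compared, other boundaries and count minimums, and leaving out each library. For single genes, the adjusted p with the block is printed only where it passed the threshold after a miss without the block. The printed values are therefore a one-sided choice.

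The members, lists and tests were chosen with earlier results of these data known. Named genes were, for each line, up to 6 members each way by log2 fold change among those called at 0.05 whose libraries lay apart from WT and whose log2 CPM averaged at least 3. To these came up to 6 shared by both lines, 4 each way between the lines, the 6 highest per kb, up to 4 per list by adjusted p, and members nearest to the boundary and the count minimum. Predicted genes were left out. Genes at 0 in WT are set against 3 counts summed over the group as a floor, which covers counting error only. RefSeq promoter windows (GRCm38.p6) were matched by gene ID for 140 of 186 members.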

Additional observations from a re-analysis of the deposited data

Results flagged for a closer look

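Of the 15 members called between the lines, the 14 below, 6 higher and 8 lower in line 2, were among the genes named by rule; the other, lower in line 2, was not. They differed between line 1 and line 2 by the test of that difference itself (edgeR's quasi-likelihood test, Benjamini-Hochberg adjusted over 12910 genes). Values are line 2 minus line 1 on the log2 scale. Line 2 was higher for Cdh3 (4.96), Smpd3 (4.37), Esrp2 (3.19), Plekhg4 (1.74), Tubb3 (1.16) and Slc7a5 (1.06). Of these, Cdh3, Esrp2, Tubb3 and Slc7a5 had lower values than WT in both lines, and Smpd3 and Plekhg4 lay below WT in line 1 and above it in line 2. Line 2 was lower for Maf (-3.69), Cdyl2 (-3.16), Spire2 (-2.02), Ddx19b (-1.38), Ccsap (-1.23), Pdf (-1.13), Mlkl (-1.10) and Galns (-0.64). Ccsap, a centriole protein, stood at 30.6 and 32.8 CPM in the WT libraries, at 44.3 and 57.5 in those of line 1 and at 21.3 and 22.1 in those of line 2 (adjusted p for the difference between lines 0.00923 by edgeR).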

How the results depend on the processing

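No called value changed sign under any alternative run. RLE scaling, a boundary at 100 Mb, a count minimum of 100 and leaving out members that overlap another gene with 30 or more counts (chosen after seeing the data) kept every member count within 1.5 times. Line 1 had 38 called members and 95 with the replicate block, 25 with only the 2 groups in the fit, 16 of 118 with the boundary at 110 Mb, and 11 to 40 with 1 library left out. Line 2 had 23, and 46 without the filter, 41 by DESeq2, 89 with the replicate block, 48 with only the 2 groups, 10 with the boundary at 110 Mb, and 1 to 1 with 1 library left out. Line 2 minus line 1 had 15, and 43 with the block, 7 with a minimum of 1000 counts, and 5 to 21 with 1 library left out. With the boundary at 110 Mb the member medians were -0.19 and -0.32, and the differences from the genes before it -0.018 and -0.22. With 1 library left out, medians ran from -0.33 to -0.27 in line 1 and -0.47 to -0.37 in line 2, differences from -0.15 to -0.12 and -0.38 to -0.31, and medians of the members in the first 10 Mb past the boundary from -0.47 to -0.44 and -0.64 to -0.54. With 1 library left in a group, it is assumed to vary like the others. The cause of these shifts was not tested.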
